A study of Caenorhabditis elegans with 6 samples.

Results

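Sperm genes of the nematode Caenorhabditis elegans were followed through 3 libraries of worms treated with terahertz radiation and 3 libraries of control worms. The members are all genes of the deposited table whose name is msp, ssp, ssq, nspd or spe followed by a number. They number 82 of the 46950 genes and transcribed units listed, with 31 msp, 12 ssp, 4 ssq, 10 nspd and 25 spe genes. The THz group was exposed to terahertz radiation, the band between microwaves and infrared light, at the 0.26 THz named in the series title, and the Control group is labelled only as the control. All 6 libraries were made from polyadenylated RNA of whole bodies. The labels used here state no strain, age, sex, exposure time or power. They also do not say whether a group's libraries were grown as separate cultures, so the p-values below reflect the scatter among the libraries at hand, part or all of which may be technical.

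Hermaphrodites of C. elegans make sperm in the last larval stage, store it in the spermatheca and then switch the germ line to oocytes, whereas males go on making sperm. The msp genes encode the major sperm proteins. These small proteins assemble into the fibres that drive the crawling of the sperm cell, and when released they act as a signal for oocyte maturation and ovulation. The ssp genes encode short proteins related to the major sperm proteins, the ssq genes encode the sperm-specific proteins of class Q, and the nspd genes encode short peptides known only from nematodes. The spe genes are named after mutants with defective spermatogenesis, and some of them also work in other cells.

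Control 2 and Control 3, which differed most of all pairs of libraries over all genes, also lay far apart in the sperm genes. On the scale of log2(FPKM + 1), where FPKM is the number of fragments scaled to gene length and library depth, Control 2 lay above Control 3 at 49 of the 54 members that passed the filter on low values, against 45.6% of the 12174 genes tested. The gap was more than 1 at 34 members (4.33% of all genes tested). No member was higher in Control 3 by more than 1, whereas 8.15% of all genes tested were. The median of Control 2 minus Control 3 was 1.35 over the members and -0.05 over all genes tested. Control 3 was the lowest of the 6 libraries at 42 members (15.8% of all genes tested) and Control 2 the highest at 39 (29.3%). All 3 THz libraries lay between Control 3 and Control 2 at 35 members (14.3%). In bulk RNA from whole worms, fewer sperm-producing cells and less RNA per cell cannot be told apart.

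The libraries held 19076047 to 20785842 counted reads in the THz group and 20304597 to 21973652 in the Control group, as recovered from the FPKM values. The 54 members kept had at least 1 FPKM in at least 3 libraries. Of the other 28, 5 were at 0 in every library and 22, these included, had fewer than 10 reads in every library. The highest value among the 23 that were detected but not kept was 1.93 FPKM. The median of the mean FPKM was 7.17 over the members kept and 15.1 over all genes tested. The highest mean of a member was 86.5 FPKM, at spe-39. Outside the spe family no member reached more than 24.3 FPKM in any library. A member kept had a median of 433 reads over the 6 libraries, with a minimum of 27.

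**Figure D1:**
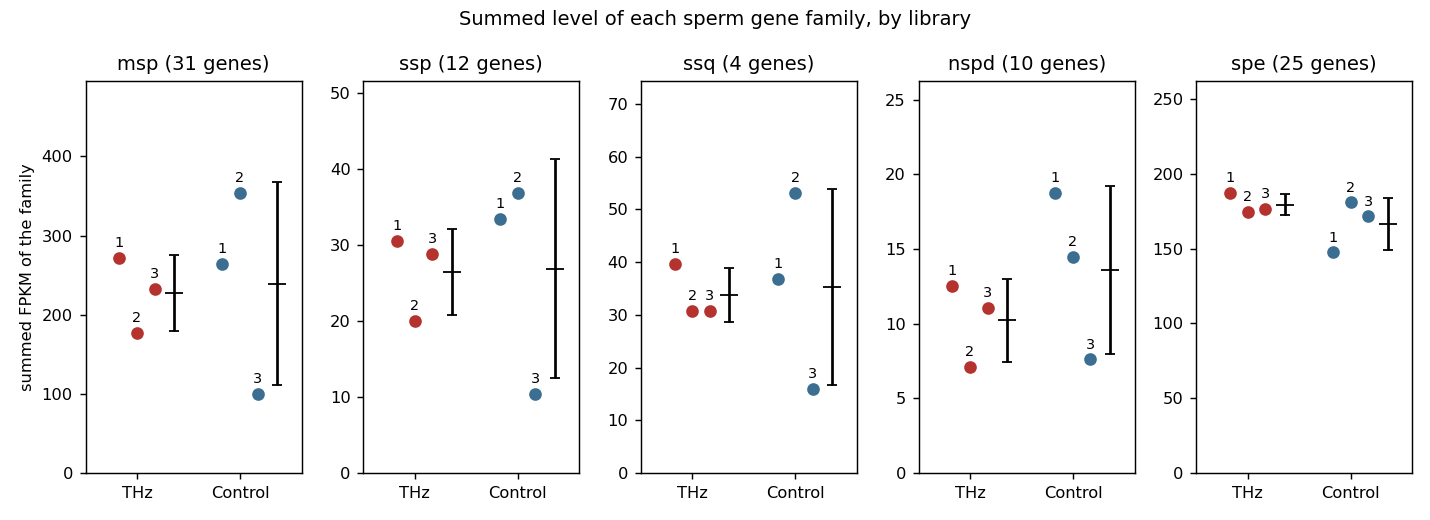
Summed FPKM of the genes of each family in each library, with the THz libraries on the left of each panel and the Control libraries on the right; numbers are the replicate numbers, and the black bar is the mean with the SD of 3 libraries. In msp, ssp and ssq, Control 2 is the highest library and Control 3 the lowest, with all THz libraries between them.

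Summed over the 31 msp genes, the level was 272, 177 and 233 FPKM in THz 1, 2 and 3, against 264, 354 and 99.98 FPKM in Control 1, 2 and 3. The groups overlapped completely, since the THz libraries fell inside the range of the controls. The mean was 227 ± 48.0 FPKM in THz and 239 ± 129 FPKM in Control libraries (SD, n = 3 each), a ratio of 0.949. The 3 controls therefore carried a coefficient of variation of 53.8%, and the THz libraries one of 21.1%. Control 2 held 3.54 times as much msp signal as Control 3. Counting error was far smaller than that gap. The msp genes took 159.5 reads per 1000000 in Control 2 (95% Wilson interval 154 to 165) and 45.4 in Control 3 (42.7 to 48.3). These intervals cover counting error only.

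The ssp and ssq families also had Control 2 as the highest library and Control 3 as the lowest. The 12 ssp genes summed to 30.5, 20.1 and 28.8 FPKM in THz libraries and to 33.4, 36.9 and 10.4 FPKM in Control libraries, a ratio of group means of 0.984. The 4 ssq genes summed to 39.7, 30.8 and 30.8 FPKM in THz libraries and to 36.9, 53.1 and 15.97 FPKM in Control libraries, a ratio of 0.956. The ratio of summed msp to summed ssq signal stayed between 5.73 and 7.55 in the 6 libraries, at 6.85, 5.73 and 7.55 in THz 1, 2 and 3 and 7.15, 6.66 and 6.26 in Control 1, 2 and 3. The level of the ssq family itself was 3.33-fold higher in Control 2 than in Control 3.

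The nspd and spe families were ordered differently. The 10 nspd genes summed to 12.5, 7.11 and 11.04 FPKM in THz libraries and to 18.8, 14.5 and 7.60 FPKM in Control libraries. Here Control 1 was the highest library and THz 2 the lowest. The ratio of group means was 0.751, on 10.2 ± 2.79 FPKM in THz and 13.6 ± 5.63 FPKM in Control libraries. The 25 spe genes summed to 187, 175 and 176 FPKM in THz libraries and to 147, 181 and 171 FPKM in Control libraries, with Control 1 the lowest. Most of this sum came from a few genes, and without the 5 highest the other 20 summed to 13.9, 13.6 and 14.5 FPKM in THz libraries, against 14.4, 20.1 and 11.8 FPKM in Control libraries. Those 20 genes again had Control 2 highest and Control 3 lowest.

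The comparison of THz with Control asked which genes differ after the exposure. Of the 54 members tested with limma on log2(FPKM + 1), 0 were called at an adjusted p under 0.05, as were 0.00% of the 12174 genes tested. At an unadjusted p under 0.05 there were 0 members, against 5.86% of all genes tested. Tested with voom on recovered reads, 0 members were called and 0 had an unadjusted p under 0.05. The smallest adjusted p of a member was 0.827. Differences were higher at 31 members and lower at 23, and 50.5% of all genes tested were higher. After quantile normalization the split was 37 higher and 17 lower, and 43.6% of all genes tested were lower in that setting. There 1 member had an unadjusted p under 0.05 (limma), beside 733 of the 12174 genes. Without the filter on low values it was 1 of 77 members, beside 1088 of 20845 genes. The median difference was 0.035 on the log2 scale over the members and 0.0030 over all genes tested. The groups did not overlap at 1 of the members tested, spe-15, which was lower after THz. Below the filter, ssp-33 was higher in every THz library, at 0.124, 0.728 and 0.567 FPKM against 0, 0.112 and 0.107 FPKM in Control libraries, with at most 6 reads in a library. All THz libraries lay below all Control libraries at 7.33% of the genes tested, and above them at 6.44%.

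The precision of these comparisons was low. The 95% interval of the difference had a median width of 1.75 on the log2 scale over the members, against 0.789 over all genes tested. The SD of log2 values was larger among the Control than among the THz libraries at 50 of 54 members, and at 79.1% of all genes tested. Its median over the members was 0.27 among THz and 0.70 among Control libraries, against 0.11 and 0.21 over all genes tested. Differences that lie inside such an interval were not detectable with 3 libraries in each group, and the missed threshold does not show that the groups were alike.

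**Figure D2:**
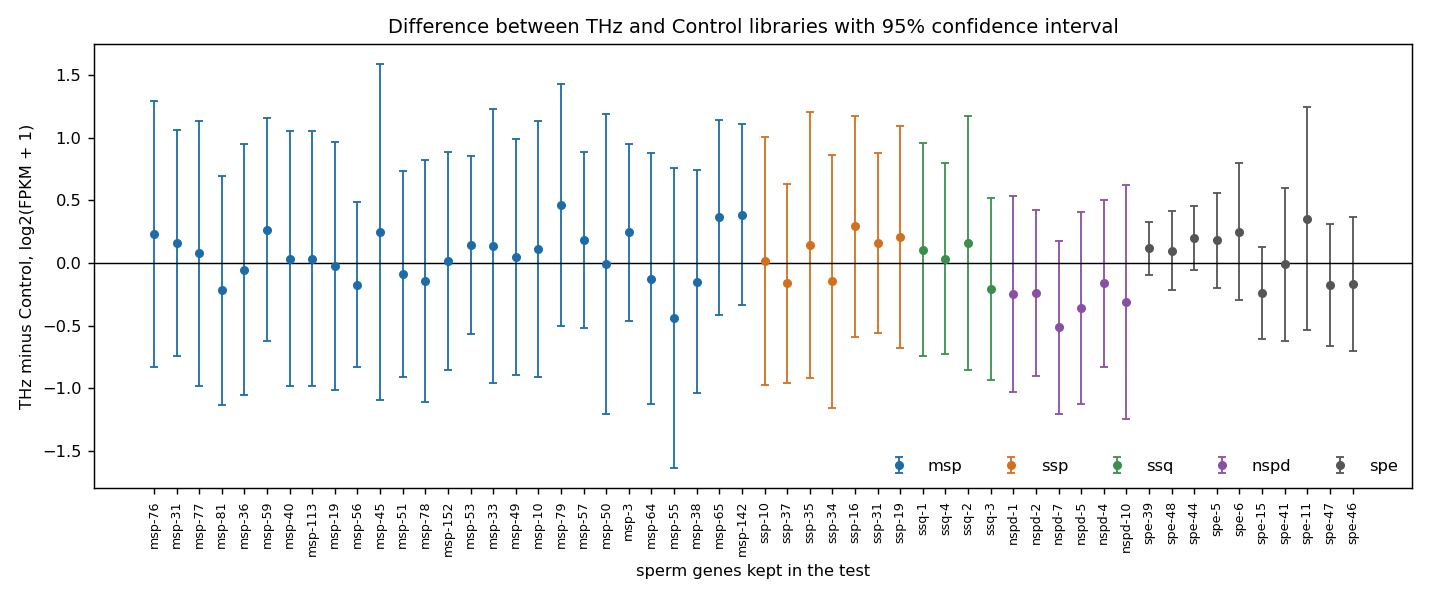
Difference between THz and Control libraries in log2(FPKM + 1) for each of the 54 sperm genes tested, with its 95% confidence interval from limma, coloured by family. Every interval includes 0; those of the msp genes are wide, and the narrowest belongs to spe-39.

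The direction of the comparison at most members depended on which control library was used. Without Control 3, 47 of the 54 members were lower after THz (47.7% of all genes tested), with a median difference of -0.36. Without Control 2, 43 of the 54 were higher (51.6%), with a median of 0.30. In the msp family this meant 26 of 27 genes lower without Control 3, at a median of -0.43, and 26 of 27 higher without Control 2, at a median of 0.36. The ssq and ssp families turned in the same way, with medians of -0.35 and -0.40 without Control 3 and of 0.37 and 0.18 without Control 2. The nspd median stayed below 0 in both cases, at -0.54 without Control 3 and -0.14 without Control 2, and the spe median stayed above 0, at 0.04 without Control 3 and 0.16 without Control 2. With either library left out, 0 members were called by limma, while 0.00% of all genes tested were called without Control 3 and 1.92% without Control 2. At an unadjusted p under 0.05, 10 members were lower without Control 3 (5.57% of all genes tested) and 1 was higher, spe-44 (6.46%). Without Control 2, 4 members were higher at that p (6.04%) and 1 was lower, nspd-7 (11.6%). When limma weighted each library by its scatter, Control 2 and Control 3 received the lowest weights and Control 1 the highest, 4.29. The Control side of that fit therefore rested mainly on Control 1. With these weights 9 members were called, 5 higher and 4 lower, as were 25.4% of all genes tested. The 5 higher ones were msp-3, spe-11, spe-39, spe-44 and spe-48, and the 4 lower ones were msp-55, nspd-1, nspd-5 and nspd-7.

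**Figure D3:**
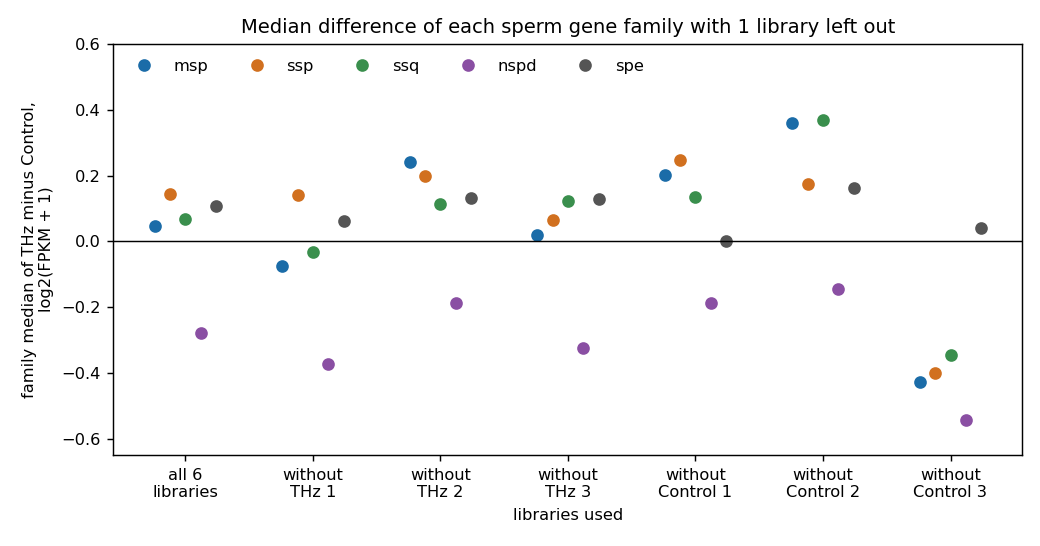
Median over the tested genes of each family of the THz minus Control difference in log2(FPKM + 1), with all 6 libraries and with each library left out. The msp, ssp and ssq medians lie between 0.18 and 0.37 without Control 2 and between -0.43 and -0.35 without Control 3.

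Among the msp genes, the highest mean level belonged to msp-76 (chromosome IV of build WBcel235, 9688982 to 9689433). It measured 21.2, 12.6 and 15.3 FPKM in THz libraries, against 16.99, 24.3 and 5.74 FPKM in Control libraries. The highest and the lowest of these values were both controls. The difference was 0.23 ± 0.46 on the log2 scale (SE), with a 95% interval of -0.83 to 1.29 and an adjusted p of 0.923 (limma). The next gene, msp-31 (chromosome II, 4916179 to 4916562), measured 19.2, 13.1 and 16.0 FPKM in THz libraries and 22.1, 18.6 and 6.75 FPKM in Control libraries. Its locus overlaps aagr-2, and a kit that keeps no strand does not separate their reads. The third, msp-77 (chromosome IV, 9894596 to 9895038), measured 17.4, 8.01 and 13.5 FPKM in THz libraries, against 14.1, 20.4 and 5.34 FPKM in Control libraries.

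The 2 msp genes with the smallest unadjusted p were msp-142 and msp-79. The first (chromosome II, 5797893 to 5798341) measured 2.45, 2.52 and 4.82 FPKM in THz libraries and 3.07, 2.54 and 1.22 FPKM in Control libraries, a difference of 0.38 with a 95% interval of -0.34 to 1.104 (adjusted p = 0.828 with limma). The second, msp-79 (chromosome IV, 9766745 to 9767187), measured 8.16, 6.73 and 10.2 FPKM in THz libraries and 7.34, 9.86 and 2.36 FPKM in Control libraries, a difference of 0.46. In both genes THz 3 was the highest library and Control 3 the lowest. Over the whole family, Control 3 was the lowest library at 26 of the 27 genes tested. The exception was msp-10, with 10.1, 3.77 and 10.3 FPKM in THz libraries and 6.24, 11.9 and 4.04 FPKM in Control libraries, where THz 2 was lowest.

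The gap between the control libraries varied among the msp genes. Control 2 exceeded Control 3 at all 27 genes tested, by 0.68 (msp-142) to 2.61 (msp-45) on the log2 scale, and by more than 1 at 24. The gene msp-45, whose locus overlaps srb-13, measured 10.9, 8.04 and 7.64 FPKM in THz libraries and 7.69, 18.8 and 2.25 FPKM in Control libraries. At msp-55 the controls split otherwise. It measured 3.90, 1.91 and 3.16 FPKM in THz libraries and 7.22, 7.17 and 1.19 FPKM in Control libraries, so that 2 controls lay above all THz libraries and the other one below them. Without Control 3 its difference was -1.07, the largest of the members tested in that setting, at an adjusted p of 0.328 (limma). The THz libraries also had a common order, with THz 1 above THz 2 at 25 of the 27 msp genes and at 45 of all 54 members, against 36.3% of all genes tested.

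**Figure D4:**
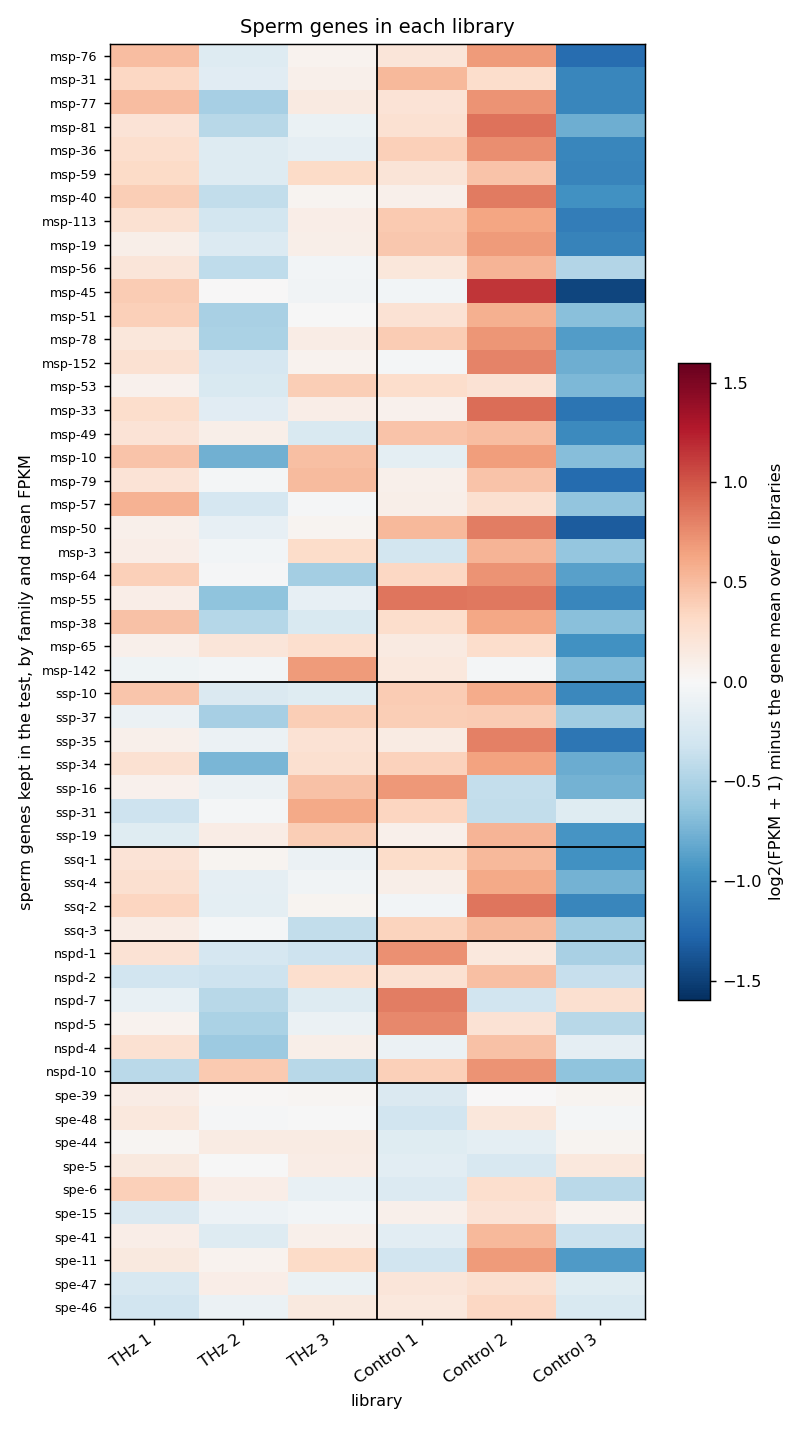
Level of each of the 54 sperm genes tested in each library, as log2(FPKM + 1) minus the gene's mean over the 6 libraries, with families separated by lines and THz libraries on the left. Control 3 is blue and Control 2 red through nearly all msp and ssq genes, while the spe genes at the top of their block are close to 0 in every library.

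Many msp genes encode the same protein. The deposited descriptions give 20 of the 31 a product named for several genes, and 12 of these share 1 product, among them msp-19, msp-31, msp-40 and msp-113. Reads from near-identical copies can be split or dropped in counting, so the level of a single msp gene is uncertain, and the treatment of shared reads is not given in the sources used here. The mean level over all libraries of the 12 genes with the shared product ran from 2.77 FPKM for msp-142 to 15.96 FPKM for msp-31. Summed over these 12 genes, the level was 115, 80.4 and 104 FPKM in THz libraries and 119, 148 and 40.9 FPKM in Control libraries, in the same order of controls as for the whole family. The genes msp-77 and msp-79, which share another product, summed to 25.6, 14.7 and 23.7 FPKM in THz libraries and to 21.5, 30.2 and 7.70 FPKM in Control libraries. One msp gene, msp-32, was at 0 in every library. At its length a count of 0 allows up to 0.437 FPKM, taking 3 reads as the limit. The other msp genes not kept were msp-58, msp-63 and msp-74, with at most 0.771 FPKM.

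The msp and nspd genes were short, at 234 to 519 and 216 to 375 bases, and many members lay close together on the chromosomes. All 31 msp genes and 50 of the 82 members had a single exon in the Ensembl annotation of build WBcel235. Chromosome IV held the most members, 39 of 82 (47.6% of members, 16.5% of genes tested), with 0 on the X chromosome (14.5% of genes tested). All msp genes were on chromosomes II and IV, 13 and 18 of them. Where each member lay within 300000 bases of the next, 3 groups held more than 10 genes. The group on chromosome II from 4785861 to 5200223 held 10 msp and 2 nspd genes, and summed to 83.7, 58.9 and 69.2 FPKM in THz libraries against 81.3, 116 and 28.8 FPKM in Control libraries. The group on chromosome IV from 4994324 to 5316944 held 9 msp, 2 ssp, 2 ssq and 2 nspd genes, and summed to 98.2, 65.2 and 86.99 FPKM in THz libraries against 97.95, 122 and 37.98 FPKM in Control libraries. The group on chromosome IV from 9688982 to 10391969 held 17 members of all 5 families, and summed to 146, 88.9 and 118 FPKM in THz libraries against 138, 183 and 56.6 FPKM in Control libraries. Control 2 was highest and Control 3 lowest in all 3 groups.

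Among the ssp genes, ssp-10 (chromosome IV, 9850648 to 9851070) had the highest mean level. It measured 16.3, 9.84 and 10.2 FPKM in THz libraries and 15.95, 18.3 and 5.22 FPKM in Control libraries, a difference of 0.015 ± 0.42 (SE). The next, ssp-37 on chromosome I (12561040 to 12561560), measured 3.14, 2.05 and 4.80 FPKM in THz libraries and 4.80, 4.84 and 2.02 FPKM in Control libraries. The gene ssp-35 on chromosome V (12263369 to 12263896) measured 3.18, 2.73 and 3.64 FPKM in THz libraries and 3.36, 5.94 and 0.776 FPKM in Control libraries. At all 3 of these ssp genes the highest library was Control 2 and the lowest Control 3, by narrow margins at ssp-37. The genes with the smallest unadjusted p in the family were ssp-16 and ssp-19, at differences of 0.29 and 0.21 with adjusted p = 0.884 and 0.913 (limma). The gene ssp-16 departed from the order, at 1.70, 1.43 and 2.56 FPKM in THz libraries and 3.19, 0.99 and 0.527 FPKM in Control libraries, with Control 1 highest. The gene ssp-19 measured 0.845, 1.30 and 1.77 FPKM in THz libraries and 1.25, 2.08 and 0.105 FPKM in Control libraries. Only ssp-31 of the 7 ssp genes tested was lower in Control 2 than in Control 3, at 0.679 against 0.929 FPKM.

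All 4 ssq genes were tested, and in each of them Control 2 was the highest library and Control 3 the lowest. The gene ssq-1 (chromosome IV, 9852550 to 9853609) measured 12.5, 10.95 and 9.84 FPKM in THz libraries and 13.3, 15.6 and 4.91 FPKM in Control libraries. At ssq-4 (chromosome IV, 5016479 to 5017741), which overlaps T28H11.7, the values were 12.8, 9.46 and 10.1 FPKM in THz libraries and 11.4, 16.7 and 5.84 FPKM in Control libraries. The gene ssq-2 (chromosome IV, 4996142 to 4997559) measured 11.5, 7.82 and 9.10 FPKM in THz libraries and 8.53, 16.7 and 3.73 FPKM in Control libraries. The fourth, ssq-3 (chromosome IV, 7111604 to 7112861), was lower, at 2.98, 2.57 and 1.78 FPKM in THz libraries and 3.69, 4.21 and 1.49 FPKM in Control libraries. Their differences ran from -0.21 (ssq-3) to 0.16 (ssq-2), with adjusted p of 0.896 to 0.987 (limma).

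All 6 nspd genes tested were lower after THz, with differences of -0.16 to -0.51 and a median of -0.28, and none passed the test. Without the filter on low values, 7 of 9 nspd genes were lower and 2 higher. Of the 6, 1 was higher with library weights, and 1 was higher without Control 1, without Control 2 or without THz 2. The gene nspd-7 (chromosome IV, 10268882 to 10269228) had the smallest unadjusted p of the family. It measured 1.75, 1.20 and 1.61 FPKM in THz libraries and 4.28, 1.43 and 2.59 FPKM in Control libraries, a difference of -0.51 with a 95% interval of -1.20 to 0.18 (adjusted p = 0.827 with limma). Control 2 fell among the THz libraries, so the groups overlapped. Next was nspd-5 (chromosome II, 4860064 to 4860411), with 1.36, 0.591 and 1.11 FPKM in THz libraries and 2.83, 1.64 and 0.654 FPKM in Control libraries, a difference of -0.36. The gene nspd-1 (chromosome I, 6097494 to 6097837), the most abundant, measured 3.35, 2.09 and 1.96 FPKM in THz libraries and 5.15, 3.18 and 1.59 FPKM in Control libraries. At nspd-2 (chromosome IV, 9844014 to 9844344) the values were 1.90, 1.86 and 3.34 FPKM in THz libraries and 3.27, 4.02 and 1.79 FPKM in Control libraries. In nspd-1, nspd-5 and nspd-7 the highest library was Control 1. These values rest on few reads, from 27 over all 6 libraries for nspd-10 to 121 for nspd-1. Without Control 1 the nspd-1 difference was 0.055, and the median of the family was -0.19.

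The nspd genes that were not kept had still fewer reads. Summed over 6 libraries, nspd-6 and nspd-9 had 17 reads each. The gene nspd-9 measured 1.23, 0 and 0.849 FPKM in THz libraries and 0, 0.279 and 0.134 FPKM in Control libraries. The gene nspd-8, at 0 in every library, has a limit of 0.728 FPKM at a count of 0.

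The spe genes fell into a few abundant genes with small spread and many that were barely detected. The most abundant was spe-39 (chromosome V, 6785457 to 6787866), whose product works in vesicle trafficking in many tissues besides sperm. It measured 93.4, 87.7 and 88.6 FPKM in THz libraries and 73.6, 86.8 and 89.0 FPKM in Control libraries. Its mean was 89.9 ± 3.08 FPKM in THz and 83.1 ± 8.33 FPKM in Control libraries (SD, n = 3 each), a difference of 0.12 with a 95% interval of -0.10 to 0.33. The second, spe-48 on chromosome I (1950594 to 1958527), measured 40.7, 35.6 and 35.7 FPKM in THz libraries and 29.0, 41.0 and 35.2 FPKM in Control libraries. Control 1, not Control 3, was the lowest library in both genes.

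The transcription factor gene spe-44 (chromosome IV, 12452066 to 12454215), which switches on many sperm genes, had the smallest unadjusted p of the 54 members tested, 0.106 (limma). It measured 20.7, 22.2 and 22.2 FPKM in THz libraries and 17.5, 18.1 and 20.8 FPKM in Control libraries. Control 3 was above THz 1, so the groups overlapped at that point only. The difference was 0.20 ± 0.11 (SE), with a 95% interval of -0.05 to 0.46 and an adjusted p of 0.827 (limma). Among the controls, spe-44 was highest in Control 3 and lowest in Control 1. The unconventional myosin gene spe-15 (chromosome I, 1446497 to 1465358) measured 4.52, 5.15 and 5.27 FPKM in THz libraries and 5.84, 6.58 and 5.73 FPKM in Control libraries. Its groups did not overlap, but its difference of -0.24, with a 95% interval of -0.60 to 0.13, did not pass (adjusted p = 0.828 with limma). Its locus overlaps gst-25. A subunit gene of the vacuolar proton pump, spe-5, whose locus overlaps ift-20, measured 10.3, 9.05 and 10.01 FPKM in THz libraries and 7.97, 7.46 and 10.4 FPKM in Control libraries.

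Control 3 was the lowest library at 3 of the 10 spe genes tested, spe-11, spe-6 and spe-41. At spe-46 and spe-47, which also have low levels, THz 1 was the lowest library. The gene spe-11, whose product is brought into the egg by the sperm and is needed by the embryo, measured 1.67, 1.49 and 1.97 FPKM in THz libraries and 0.934, 2.84 and 0.272 FPKM in Control libraries. The kinase gene spe-6, needed for the assembly of major sperm protein in spermatocytes, measured 8.14, 6.58 and 5.48 FPKM in THz libraries and 5.04, 7.49 and 4.21 FPKM in Control libraries. The channel gene spe-41, whose product sits in the sperm membrane and is needed for fertilization, measured 2.92, 2.17 and 2.86 FPKM in THz libraries and 2.24, 4.24 and 1.88 FPKM in Control libraries. Control 2 was the highest library at spe-11 and spe-41 and THz 1 at spe-6. The presenilin gene spe-4 and the kinase gene spe-8 did not pass the filter, and reached at most 0.657 and 0.432 FPKM.

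Other spe genes had lower levels and did not pass the filter. The fertilization genes spe-9, spe-38, spe-42 and spe-49 reached at most 0.593, 0.0845, 0.0979 and 0.107 FPKM in any library. The activation genes spe-27 and spe-29 were at 0 in every library, where a count of 0 allows up to 0.346 and 0.570 FPKM. Their loci overlap C06E7.88 and gon-1, and those of spe-9, spe-38 and spe-49 overlap C17D12.5, impt-1 and srn-1. How reads shared by overlapping genes were counted is not given. If such reads were dropped, these low values and limits understate the level. A further gene now named spe-18, listed under F32A11.3 and so outside the rule, measured 3.92, 3.55 and 3.79 FPKM in THz libraries and 3.56, 4.55 and 2.03 FPKM in Control libraries. Its highest library was Control 2 and its lowest Control 3. The genes now named spe-36, spe-51 and spe-54, listed under F40F11.4, T22B11.1 and F55H12.5, stayed at or below 0.902 FPKM, and none shared the whole order. Control 3 was the highest library at spe-36. Control 2 was highest at spe-51 and spe-54, where the lowest libraries were Control 1 and THz 3.

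Sperm genes that carry other names moved with the members. Of 20 such genes on a list, 18 were found outside the members and 12 were tested. Of the 12, 7 were higher and 5 lower after THz (50.5% of all genes tested higher), and 0 were called by limma. At an unadjusted p under 0.05 there were also 0 (5.86% of all genes tested). Their median difference was 0.07. Control 3 was the lowest library at 11 of the 12 (15.8% of all genes tested) and Control 2 the highest at 10 (29.3%). The gene msd-4, which encodes a short protein of the major sperm protein domain, measured 9.83, 7.18 and 6.82 FPKM in THz libraries and 12.8, 12.9 and 1.87 FPKM in Control libraries. The sperm chromatin gene spch-3 measured 6.76, 5.75 and 6.97 FPKM in THz libraries and 4.45, 9.22 and 2.18 FPKM in Control libraries. The zinc transporter gene zipt-7.1 did not share the order, at 64.3, 61.4 and 68.3 FPKM in THz libraries and 60.9, 53.5 and 63.97 FPKM in Control libraries.

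**Figure D5:**
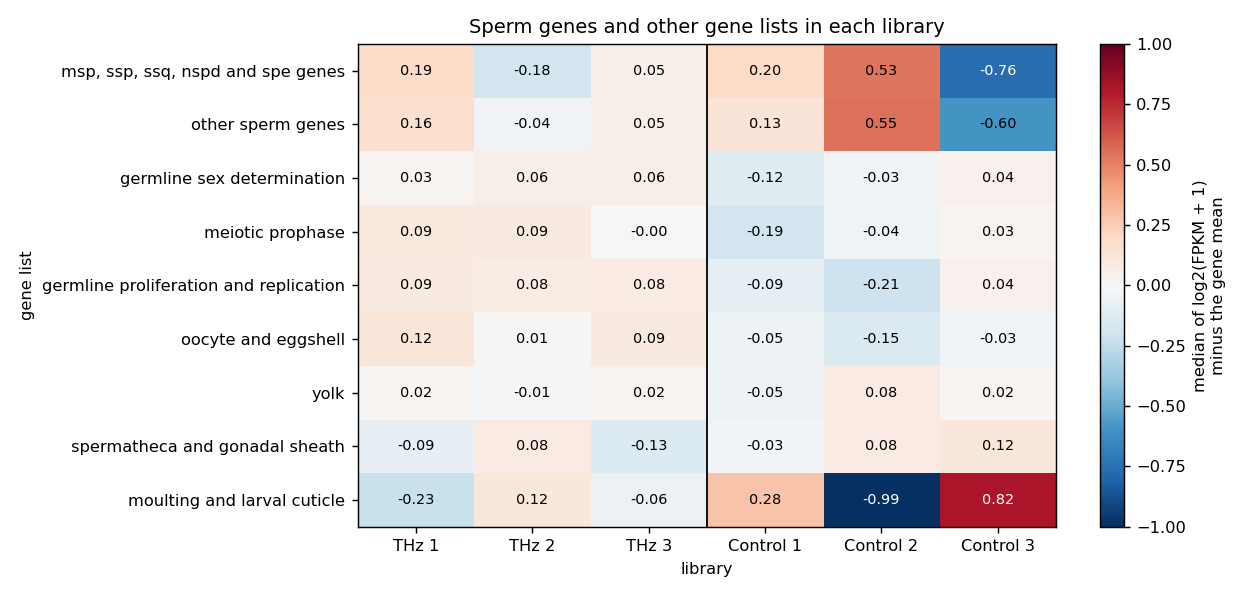
Median over the tested genes of each list of log2(FPKM + 1) minus the gene's mean over the 6 libraries, with THz libraries on the left. Both sperm rows are highest in Control 2 and lowest in Control 3, the moulting row is lowest in Control 2 and highest in Control 3, and the other germline rows stay between -0.21 and 0.12.

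Genes of other cell types and stages gave the following values in the same libraries, and their part in the sperm gene result was not tested. For comparison, 50.5% of all 12174 genes tested were higher after THz, and 5.86% had an unadjusted p under 0.05 (limma). At 8.15% of them Control 3 exceeded Control 2 by more than 1. Of the 8425 genes that passed a filter of 5 FPKM, 41.5% were lower after THz. Most genes tested on the moulting and larval cuticle list ran opposite to the sperm genes. At 3 of the 16 tested, Control 2 lay above Control 3. The 20 genes summed to 112, 153 and 133 FPKM in THz libraries and to 189.9, 73.1 and 279 FPKM in Control libraries, and 12 of the 16 tested were higher in Control 3 than in Control 2 by more than 1 on the log2 scale. Between the groups, 6 of the 16 were higher and 10 lower after THz, with a median of -0.16 and 0 called by limma (0 at an unadjusted p under 0.05). Oocyte and eggshell genes summed to 17922 to 18998 FPKM in THz libraries and 16681 to 18324 FPKM in Control libraries, with 23 of 25 higher after THz, a median difference of 0.15 and 0 called by limma (2 at an unadjusted p under 0.05). Meiotic prophase genes were higher at 19 of 21 (median 0.12), and germline proliferation and replication genes at all 15 (median 0.17), with 0 called by limma and 3 and 1 at an unadjusted p under 0.05. Yolk genes had a median difference of 0.0037, with 4 of 6 higher and 0 called by limma (0 at an unadjusted p under 0.05). Genes of the spermatheca and gonadal sheath were lower at 7 of 8, with a median of -0.12 and 0 called (0 at an unadjusted p under 0.05).

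Genes that direct germ cells to sperm or oocyte were tested at 19 of the 20 found, with 16 higher and 3 lower after THz (50.5% of all genes tested higher). Their median difference was 0.06 and 0 were called by limma, with 0 at an unadjusted p under 0.05 (5.86% of all genes tested). Among them fog-3, which commits germ cells to sperm, was barely detected, at 0.322, 0.684 and 0.393 FPKM in THz libraries and 0.403, 0.826 and 0.372 FPKM in Control libraries. Marker genes of the male body were at or near 0. The 10 genes summed to 1.00, 1.87 and 1.65 FPKM in THz libraries and to 1.35, 1.43 and 2.46 FPKM in Control libraries, none passed the filter, cwp-3 was at 0 in every library, and the male sensory genes lov-1 and pkd-2 reached at most 0.0104 and 0.0474 FPKM.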

How the data were processed

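Per the labels' protocols, RNA came from TRIzol extraction and libraries from a TruSeq RNA version 2 kit. Listed without roles in the submitters' processing notes are the tools STAR, HTSeq 0.5.4 and DESeq 1.10.1, and the build WBcel235. The FPKM values analysed are those the authors deposited, 1 per gene and library, beside each gene's position, length and name. FPKM is relative to the whole library, so abundant genes that change shift the values of all others.

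FPKM times length was a whole multiple of 1 step per library, within 0.05 reads, for 88.7% of the values above 0 and 96.4% of those of the members, which gave the recovered reads. No 2 libraries agreed within sampling noise. The chi-square per degree of freedom over all genes ran from 4.35 for THz 1 against THz 3 to 108 for Control 2 against Control 3. The groups were compared on log2(FPKM + 1) by limma 3.58.1 (R 4.3.3) allowing a mean-variance trend. A gene entered the fit when 3 or more of the 6 libraries reached 1 FPKM, which held for 12174 genes, with two-sided tests and Benjamini-Hochberg adjustment over all of them. This scale understates changes of low genes. An exact permutation test of 3 against 3 cannot go below 0.1. Of these genes 54 are members. The script was also run on simulated data, in which libraries of a group differed only by depth and random scatter. That run checks the code and not the precision reached with these libraries.

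The members and gene lists were chosen with earlier results of these data known. Named genes were any called member, the 3 highest by mean FPKM and the 2 smallest unadjusted p of each family, and further genes, given by role or as exceptions, were chosen after their values were seen. Positions are those deposited. Exons and overlaps come from Ensembl release 115 of the same build, where 16 of the 82 members have the same start and end as deposited. The table's names were used as they stand. A count of promoter motifs was planned and not run, as no sequence was used here. The alternatives left out each library in turn or used other pseudocounts (0.1, 5), filters, scalings, library weights, voom on the recovered reads or a replicate block. Figures were drawn with matplotlib 3.10.9.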

Additional observations from a re-analysis of the deposited data

How the results depend on the processing

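The count of members called was 0 in the 6 libraries and under every alternative except library weights, which called 9 of 54 (5 higher and 4 lower) beside 25.4% of all genes. Those weights were 4.29, 0.180 and 0.293 for Control 1, 2 and 3, and 1.32, 0.935 and 3.59 for THz 1, 2 and 3. The Control side of that fit thus rested mainly on Control 1. With them msp-76 was at -0.013, msp-31 at -0.32, msp-77 at -0.037, ssp-10 at -0.38, ssp-16 at -0.28, ssq-1 at -0.23 and ssq-4 at -0.068, all turned in direction, and ssp-10 was at -0.018 with a pseudocount of 5. The cause was not tested. The median difference of members ran from -0.36 to 0.30 when 1 library was left out, and was -0.0056 with a pseudocount of 5, 0.136 after quantile normalization and -0.105 with library weights.

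When 1 library was left out, log2 differences ran from -0.32 to 0.63 for msp-76, -0.32 to 0.46 for msp-31, -0.43 to 0.45 for msp-77, -0.039 to 0.81 for msp-79, -0.57 to 0.055 for nspd-1, -0.028 to 0.22 for spe-48, -0.50 to 0.32 for ssp-10, -0.48 to 0.067 for ssp-37, -0.40 to 0.58 for ssp-35, -0.015 to 0.71 for ssp-16, -0.21 to 0.53 for ssp-19, -0.35 to 0.39 for ssq-1, -0.34 to 0.35 for ssq-4 and -0.33 to 0.62 for ssq-2. The other 8 named members kept their direction in every alternative run. Ratios of summed FPKM ran from 0.735 to 1.25 for msp, 0.753 to 1.21 for ssp, 0.751 to 1.28 for ssq, 0.615 to 0.927 for nspd and 1.02 to 1.13 for spe.

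The labels used here do not say whether the replicate numbers pair the libraries. Deviations of same-numbered libraries correlated at -0.012, -0.136 and 0.028, and THz 1, 2 and 3 correlated best with Control 2, 3 and 1. The deviations were taken from group means of 3 libraries, which ties them to each other, so these values cannot decide the pairing. With the replicate block, 0 members and 0 genes were called by limma, and 532 genes had an unadjusted p under 0.05, against 714 without it. Without a filter 77 members were tested and with 5 FPKM 32, the rest being too low. The depth left 22 members with fewer than 10 reads in every library.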
